A study of Bos taurus with 92 samples.

Results

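Transcripts of 6 genes that write, read or remodel chromatin were followed in single cow blastocysts made in 3 ways. The genes were the DNA methyltransferase DNMT3A, the histone deacetylase HDAC1, the remodelling ATPases SMARCA2 and CHD4, the architectural protein CTCF and the heterochromatin reader MPHOSPH8. They were taken by symbol from the probe annotation of a spotted cDNA microarray, which gave 7 of its 8208 probes and 6 of its 4452 genes with a single symbol. CHD4 had 2 probes and each other gene had 1, and all 7 probes passed the filter on missing values, so that all 6 genes were tested among 4398. The files name no genome build, and no positions are given.

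The 44 embryos were 15 from nuclear transfer (NT, in which the nucleus of a somatic donor cell is placed in an oocyte without its own nucleus), 15 from fertilisation in vitro (IVF) and 14 from artificial insemination (AI). A further 2 samples were labelled as donor cells, with no tissue or cell line named. The labels give no breed, age, culture, clone or litter, so p-values measure the spread between these samples only. The NT embryos carry numbers that begin with 2_ (8 embryos) or 3_ (7 embryos), and 3 AI embryos carry numbers that begin with H, all without explanation. RNA of each embryo and donor sample was amplified in 3 rounds, against 2 rounds for the reference RNA, and hybridised with that reference on 2 arrays with the dyes exchanged.

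DNMT3A adds methyl groups to cytosines that carry none, a step by which the mammalian embryo sets new methylation after the parental pattern has largely been lost. HDAC1 takes acetyl groups off histones in corepressor complexes such as NuRD, in which CHD4 is an ATPase that moves nucleosomes. SMARCA2 is an ATPase of the SWI/SNF remodelling complexes, CTCF binds DNA and anchors chromatin loops, and MPHOSPH8 was described in human cells as a reader of methylated H3 in the HUSH silencing complex. After nuclear transfer the somatic pattern of methylation and chromatin has to be replaced before the embryo can develop, and the study set out to examine nuclear reprogramming, per its title.

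Levels below are log2 ratios of sample over reference, relative to the median of the array, and a difference of 1 is 2-fold. Each level is the mean of the 2 arrays of a sample, and differences carry the standard error (SE) of the model after ±. The direction of the deposited ratio, Cy5 over Cy3, is an inference and likely, not certain; the opposite reading would turn every sign. The 2 arrays of a sample correlated at r = -0.743 to -0.301 as deposited and were turned to the same direction. After turning, r was 0.301 and 0.354 in the 2 donor samples and 0.565 to 0.743 in embryos. The donor levels are thus less certain than those of embryos. Array medians ran from -2.14 to 0.862, which the centring removed. Before centring the median gene stood 0.44 higher in NT embryos than in AI embryos and 0.38 higher than in IVF embryos. No hybridisation batch is given, so a batch and the kind of embryo could coincide and cannot be told apart. The direction of the ratio was inferred from keratin and matrix genes in embryos and donor cells. Their signs were thus fixed by that choice and give it no separate support. Under it KRT8 stood 5.42 in NT, 5.42 in IVF and 5.77 in AI embryos above donor cells, and COL3A1 at -6.13, -6.16 and -6.14. Not all markers did so. Of 17 trophectoderm genes 10 in NT, 12 in IVF and 10 in AI embryos were higher than in donor cells at an adjusted p under 0.05, and 1 was lower in each. Of 14 fibroblast and matrix genes 9, 11 and 10 were lower and 1 was higher. Over all genes 35.4%, 34.3% and 37% passed in either direction.

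The 6 genes showed a pair of patterns. DNMT3A, HDAC1, SMARCA2 and MPHOSPH8 had their lowest embryo mean in the IVF group, while CHD4 and CTCF had theirs in the AI group. NT embryos differed from IVF embryos in DNMT3A, HDAC1, SMARCA2 and MPHOSPH8, so that 4 of the 6 genes rose and 0 fell, where 24.2% of all 4398 genes passed the test (13.9% higher and 10.3% lower). In IVF against AI embryos CHD4 and CTCF rose and the other 4 fell, where 29.5% of all genes passed (13.9% higher and 15.6% lower). In NT against AI embryos CHD4 and CTCF rose and 0 genes fell, where 8.07% of all genes passed (3.8% higher and 4.27% lower). The median difference over the 6 genes was 0.046 in NT minus AI, 0.67 in NT minus IVF and -0.62 in IVF minus AI, against 0.026, -4.8e-04 and 0.026 over all genes. Each embryo enters more than 1 of these comparisons, so they are not independent of each other. The 6 genes were chosen with earlier results of these data known, so their counts beside those of all genes are a description and no test. Because whole blastocysts were measured, fewer cells of a type and less RNA per cell cannot be told apart.

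**Figure D1:**
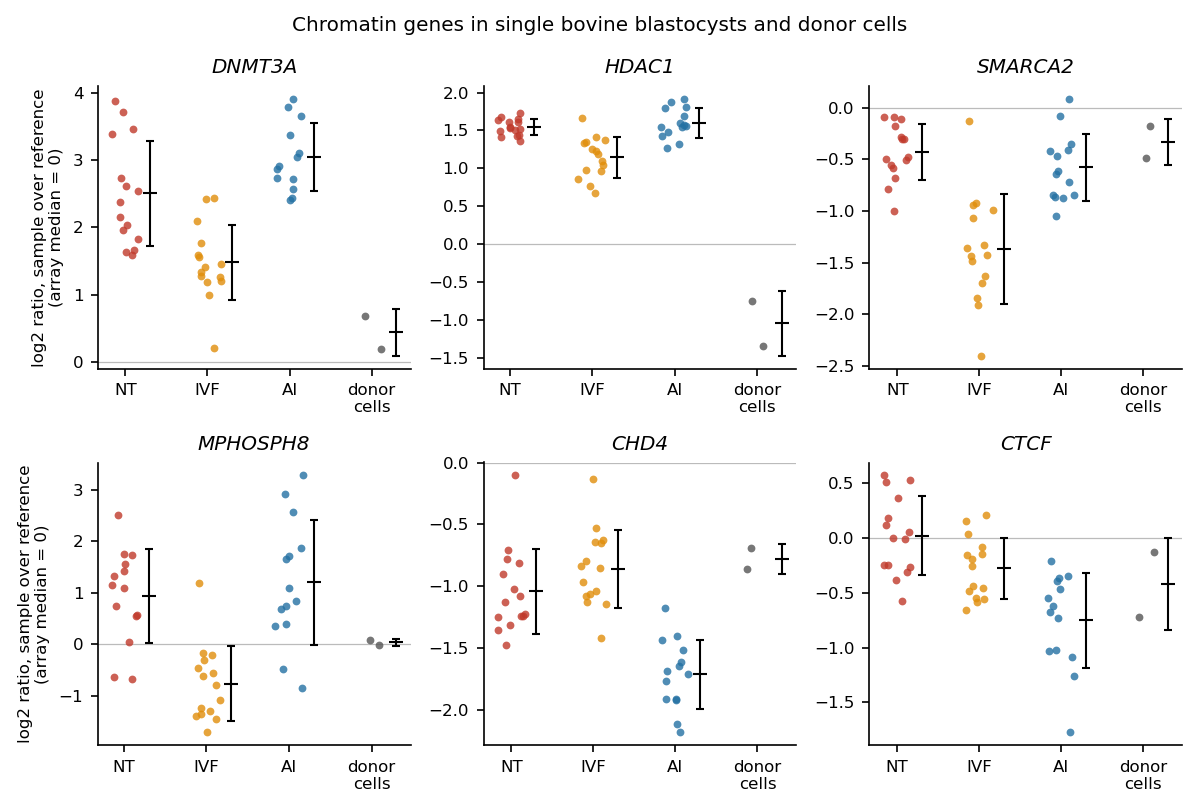
Level of each gene, as the log2 ratio of sample over reference with the array median at 0 (vertical axes), in NT, IVF and AI embryos and donor cells; points are samples, and the bars give the mean and SD of each group. The upper row and MPHOSPH8 have their lowest embryos in the IVF group, and CHD4 and CTCF in the AI group.

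DNMT3A, the de novo methyltransferase, was highest in AI, lower in NT and lowest in IVF embryos. Its level ran from 1.59 to 3.88 with a median of 2.37 in the 15 NT embryos, from 0.21 to 2.43 with a median of 1.42 in the 15 IVF embryos, and from 2.41 to 3.91 with a median of 2.90 in the 13 AI embryos with both arrays. IVF and AI embryos hardly overlapped, with 13 of 15 IVF embryos below the lowest AI embryo. The difference IVF minus AI was -1.56 ± 0.23 (adjusted p = 1.18e-06), which is 2.95-fold lower in IVF. NT embryos exceeded the IVF mean in 15 of 15 cases and the highest IVF embryo in 7, with a difference of 1.02 ± 0.22 (adjusted p = 0.000493). Between NT and AI embryos the difference was -0.53 ± 0.23 and did not pass the test (adjusted p = 0.142, 95% confidence interval -0.997 to -0.071), although 8 of 15 NT embryos lay below the lowest AI embryo.

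Of the 7 probes that of DNMT3A had the lowest correlation between the 2 arrays of an embryo. It was r = 0.35 over 43 embryos, close to the median of 0.38 over all probes, and 19 of its 184 spot values were missing. Within kinds it was 0.43 in NT (n = 15), 0.082 in IVF (n = 15) and -0.46 in AI embryos (n = 13). The DNMT3A levels of single IVF and AI embryos are therefore uncertain. AI embryo 13 read 5.05 with the sample in Cy5 and 0.69 in Cy3, and AI embryo 5 read 5.88 and 1.93. AI embryo 15 had a Cy3 value of 0.767 and none in Cy5, so it was left out of the DNMT3A fit. The difference NT minus IVF was 1.26 ± 0.31 with Cy5 alone and 0.78 ± 0.31 with Cy3 alone, where the call ended (adjusted p = 0.0703). IVF minus AI passed in both orientations, at -2.10 ± 0.32 with Cy5 and -0.89 ± 0.32 with Cy3.

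HDAC1, the deacetylase, differed less in size but with less scatter. It ran from 1.36 to 1.74 with a median of 1.53 in NT embryos, from 0.68 to 1.67 with a median of 1.19 in IVF embryos, and from 1.26 to 1.92 with a median of 1.57 in AI embryos. The NT range lay inside the AI range, and 10 of 15 IVF embryos lay below the lowest AI embryo. HDAC1 was 1.37-fold lower in IVF than in AI embryos (-0.45 ± 0.088, adjusted p = 9.25e-05), and 14 of 15 IVF embryos had less than the AI mean. It was 1.32-fold higher in NT than in IVF embryos (0.40 ± 0.086, adjusted p = 0.000512), and 15 of 15 NT embryos exceeded the mean of the IVF group. NT minus AI was -0.057 ± 0.088 (adjusted p = 0.749), with a 95% confidence interval of -0.23 to 0.12. With arrays as deposited that difference was 0.36 ± 0.14 (adjusted p = 0.0318), close to the shift of the median gene.

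SMARCA2, the SWI/SNF ATPase, had its lowest levels in IVF embryos. Levels ran from -0.99 to -0.087 with a median of -0.48 in NT embryos, from -2.40 to -0.13 with a median of -1.42 in IVF embryos, and from -1.05 to 0.087 with a median of -0.63 in AI embryos. The groups overlapped, with 11 of 15 IVF embryos below the lowest AI embryo and IVF embryo 11 the highest of its group at -0.13. The level of IVF embryo 11 was -1.23 before centring. SMARCA2 was 1.92-fold higher in NT than in IVF embryos (0.94 ± 0.14, adjusted p = 2.81e-06), with 15 of 15 NT embryos over the mean of the IVF group. It was 1.73-fold lower in IVF than in AI embryos (-0.79 ± 0.15, adjusted p = 3.96e-05, 14 of 15 IVF embryos below the AI mean). NT minus AI was 0.15 ± 0.15 (adjusted p = 0.590, 95% confidence interval -0.14 to 0.44), and 0.56 ± 0.16 with arrays as deposited, where it passed (adjusted p = 0.00541).

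MPHOSPH8, the HUSH reader, had the largest differences from IVF embryos and the widest scatter of the 6 genes. It ran from -0.66 to 2.50 with a median of 1.12 in 14 NT embryos, from -1.70 to 1.18 with a median of -0.79 in 15 IVF embryos, and from -0.84 to 3.28 with a median of 0.97 in 14 AI embryos. The groups overlapped, since IVF embryo 9 stood at 1.18 while NT embryos 3_3 (-0.66) and 3_5 (-0.64) and AI embryos H3 (-0.84) and H5 (-0.47) stood among the IVF embryos. The difference IVF minus AI was -1.96 ± 0.34 (adjusted p = 1.69e-05), or 3.90-fold lower in IVF, and 15 of 15 IVF embryos lay below the AI mean. NT minus IVF was 1.70 ± 0.34 (adjusted p = 0.000196), or 3.25-fold, and 14 of 14 NT embryos lay above the IVF mean. NT minus AI was -0.26 ± 0.35 (adjusted p = 0.698), with a 95% confidence interval of -0.96 to 0.43. NT embryo 3_9 had a value in Cy3 alone, -0.399, and was left out of the MPHOSPH8 fit.

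Within the AI group MPHOSPH8 was lowest in embryos H3 (-0.84) and H5 (-0.47), while H1 stood at 1.71. The 11 AI embryos without an H label averaged 1.49 and ran from 0.36 to 3.28. The arrays of H3 differed, at -2.32 with the sample in Cy5 and 0.63 in Cy3. This split was seen in the values and was not tested. Without the H embryos the difference IVF minus AI was -2.25 ± 0.33 (adjusted p = 2.03e-06).

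CHD4, the NuRD ATPase, was lowest in AI embryos. Its level ran from -1.47 to -0.10 with a median of -1.13 in NT embryos, from -1.42 to -0.13 with a median of -0.85 in IVF embryos, and from -2.18 to -1.17 with a median of -1.69 in AI embryos. IVF and AI embryos were nearly separate, with 14 of 15 IVF embryos above the highest AI embryo, and 8 of 15 NT embryos lay above it too. CHD4 was 1.80-fold higher in IVF than in AI embryos (0.85 ± 0.12, adjusted p = 4.67e-07) and 1.59-fold higher in NT than in AI embryos (0.67 ± 0.12, adjusted p = 0.000200). In each comparison 15 of 15 embryos lay above the AI mean. NT minus IVF was -0.18 ± 0.12 (adjusted p = 0.271, 95% confidence interval -0.42 to 0.055).

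The 2 CHD4 probes, which are separate cDNA clones, gave like differences. NT minus AI was 0.65 ± 0.12 on one and 0.69 ± 0.13 on the other, and IVF minus AI was 0.85 ± 0.12 and 0.85 ± 0.13. For the other 5 genes no second probe was on the array. NT embryos labelled 3_ had a CHD4 mean of -0.86 and those labelled 2_ of -1.20, and NT minus AI passed with either set alone, at 0.85 ± 0.15 and 0.51 ± 0.13.

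CTCF, the architectural protein, was also lowest in AI embryos. It ran from -0.57 to 0.57 with a median of -0.00225 in NT embryos, from -0.66 to 0.21 with a median of -0.26 in IVF embryos, and from -1.77 to -0.21 with a median of -0.65 in AI embryos. The groups overlapped, with 9 of 15 NT and 7 of 15 IVF embryos above the highest AI embryo. CTCF was 1.71-fold higher in NT than in AI embryos (0.77 ± 0.14, adjusted p = 0.000180) and 1.39-fold higher in IVF than in AI embryos (0.48 ± 0.14, adjusted p = 0.00650), with 15 of 15 embryos above the AI mean in each comparison. NT minus IVF was 0.30 ± 0.13 and missed the threshold (adjusted p = 0.103, 95% confidence interval 0.027 to 0.57), with 12 of 15 NT embryos above the IVF mean. It passed at the same 0.30 in a fit to single arrays with a dye term (adjusted p = 0.0461), and at 0.68 with arrays as deposited (adjusted p = 0.00232).

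**Figure D2:**
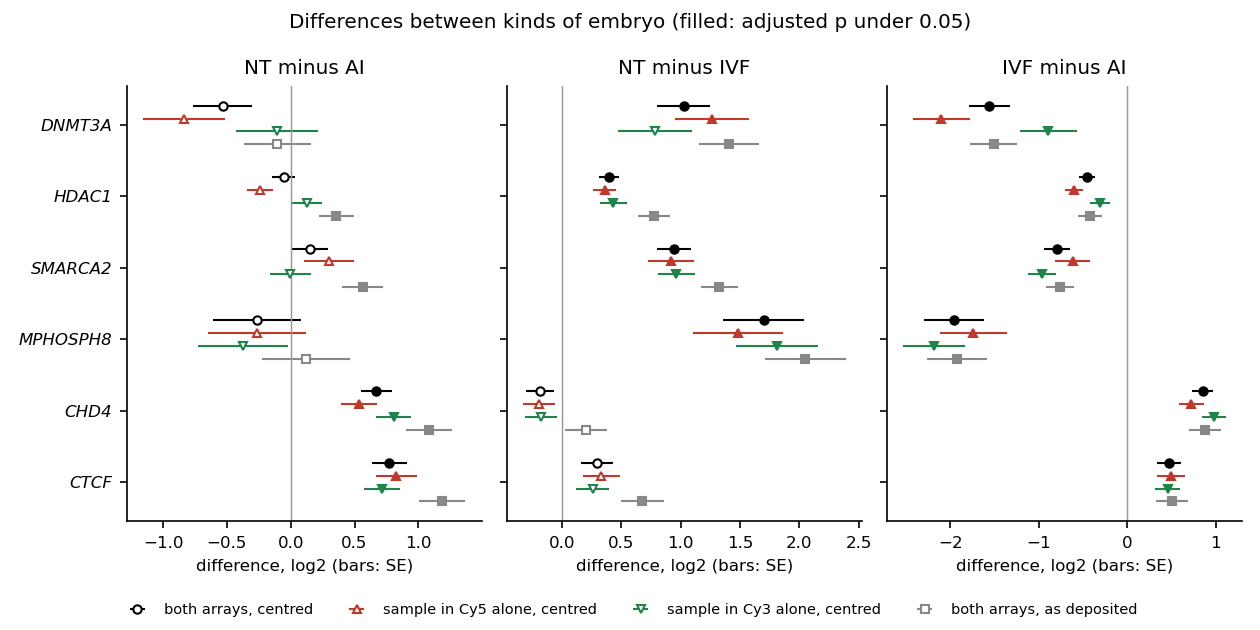
Differences between kinds of embryo for each gene on the log2 scale (horizontal axes; bars are SE; filled symbols have an adjusted p under 0.05), with both arrays of a sample centred, with each dye orientation alone, and with both arrays as deposited. CHD4 and CTCF in NT minus AI and all 6 genes in IVF minus AI are filled in all 4 settings, and DNMT3A in NT minus IVF is open with Cy3 alone.

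The pair of remodelling ATPases went opposite ways in IVF against AI embryos. A difference between CHD4 and SMARCA2 within an embryo does not depend on the centring of its arrays, which takes 1 value from both genes, though it was not computed under the other scalings. Its zero point has no meaning because the probes differ. That difference ran from -1.26 to 0.20 with a median of -0.63 in NT embryos, from -0.91 to 2.27 with a median of 0.54 in IVF embryos, and from -1.57 to -0.72 with a median of -1.09 in AI embryos. In 14 of 15 IVF embryos it lay above the highest AI embryo and in 11 above the highest NT embryo, and 8 of 15 NT embryos lay above the highest AI embryo. IVF embryo 1 had both the lowest SMARCA2 (-2.40) and the highest CHD4 of its group (-0.13). The measure was chosen after the levels of both genes had been seen, so no test is given.

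**Figure D3:**
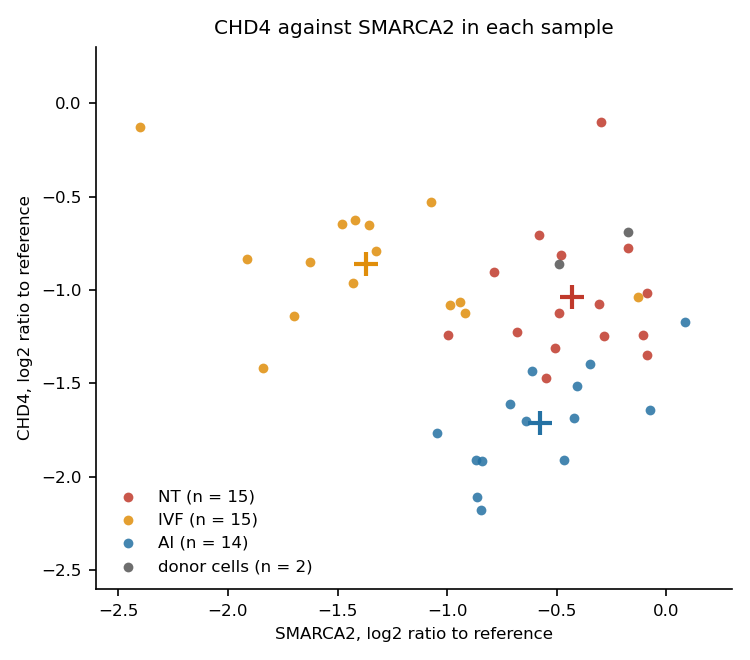
CHD4 (vertical) against SMARCA2 (horizontal) in each sample, both as log2 ratios to the reference with the array median at 0; points are samples and crosses the means of each kind of embryo. Of the IVF embryos 11 of 15 lie left of the lowest AI embryo, and the AI mean is the lowest of the 3 kinds on the vertical axis.

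Each dye orientation was examined for every gene. Over the embryos the 2 arrays correlated at r = 0.87 for MPHOSPH8 (n = 43), 0.81 for CTCF, 0.72 and 0.68 for the CHD4 probes, 0.59 for SMARCA2 and 0.46 for HDAC1 (n = 44 each), beside the 0.35 of DNMT3A. These correlations include the differences between kinds of embryo and are given as descriptions. With either orientation alone, CHD4 and CTCF passed in NT minus AI, HDAC1, SMARCA2 and MPHOSPH8 passed in NT minus IVF, and all 6 genes passed in IVF minus AI. A dye offset was present for some probes. SMARCA2 and DNMT3A read higher by 0.51 and 0.53 with the embryo in Cy5 than in Cy3, and MPHOSPH8 read lower, at -0.46, while CTCF (-0.074) and HDAC1 (0.12) had smaller offsets. The offset also differed by group. For DNMT3A the Cy5 and Cy3 means were 2.76 and 2.25 in NT, 1.49 and 1.47 in IVF and 3.60 and 2.36 in AI embryos. In donor cells they were -0.36 and 1.24. For HDAC1 they were 1.53 and 1.55 in NT, 1.17 and 1.12 in IVF and 1.77 and 1.43 in AI embryos. The exchange of dyes balances an offset in the means only where it is equal and opposite on the 2 arrays of a sample, which was not tested.

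**Figure D4:**
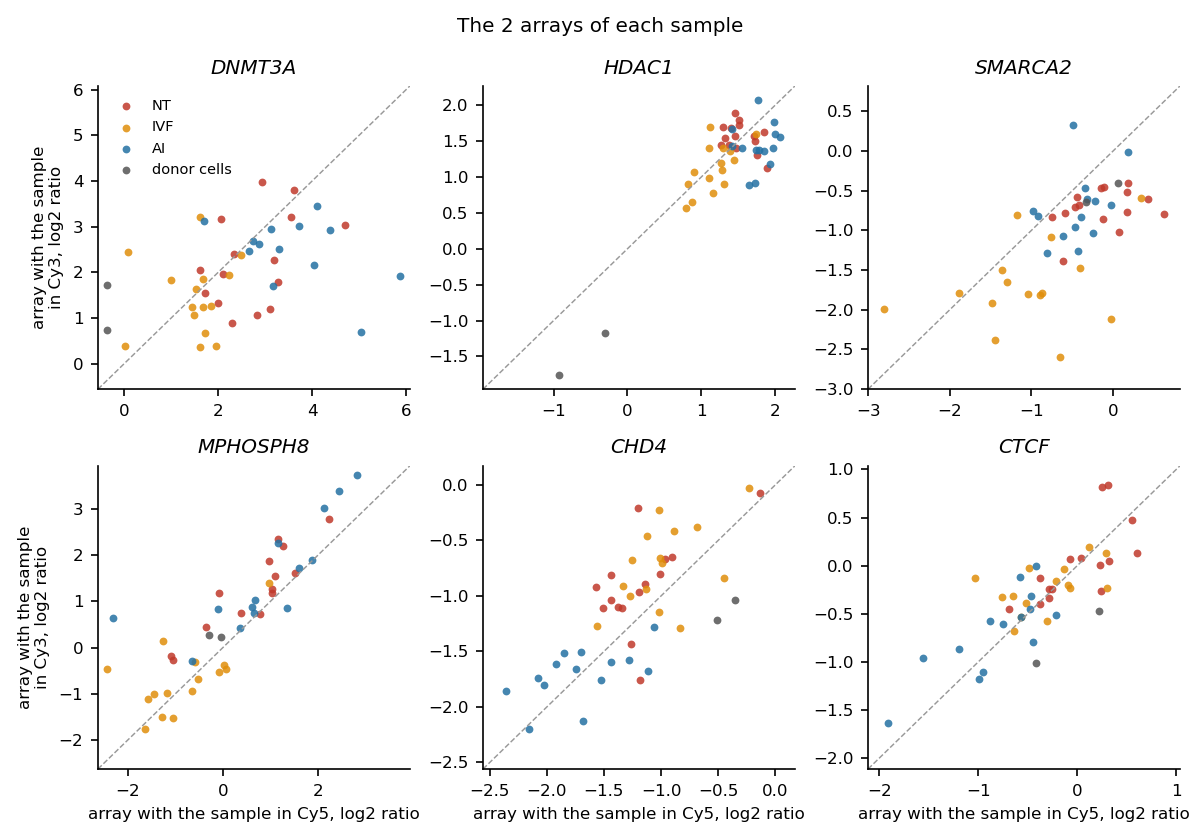
The 2 arrays of each sample for each gene, with the sample in Cy5 on the horizontal and in Cy3 on the vertical axis (log2 ratio to the reference, array median at 0); the dashed line marks equal values, points are samples, and CHD4 is the mean of its 2 probes. The 2 arrays rise together for MPHOSPH8 (r = 0.87) and CTCF (r = 0.81), and DNMT3A scatters widely.

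Scatter between embryos of a kind differed by gene. The standard deviation (SD) of MPHOSPH8 was 0.91 in NT, 0.73 in IVF and 1.21 in AI embryos, against a median over all genes of 0.41, 0.45 and 0.44. In AI embryos 50 of 4398 genes varied more, and the 2 arrays of an AI embryo gave like values (r = 0.80, n = 14). DNMT3A had an SD of 0.78 in NT embryos, of which 411 genes had a larger one. HDAC1 was at the other end, with an SD of 0.11 in NT embryos, where 1 gene had a smaller one, against 0.27 in IVF and 0.20 in AI embryos. Each dye orientation alone gave HDAC1 an SD of 0.20 and 0.19 in NT embryos, and the 2 arrays correlated at r = -0.41 there, so their average varied less than either. SMARCA2 varied more in IVF embryos (SD 0.53) than in NT (0.27) or AI embryos (0.32), and these SDs were not tested against each other. For SMARCA2 the 2 arrays of an embryo correlated within kinds at r = 0.32 in IVF, 0.31 in NT and 0.39 in AI embryos. IVF embryo 7 read -0.022 with the sample in Cy5 and -2.12 in Cy3. The SMARCA2 levels of single embryos, and their differences from CHD4, are therefore uncertain.

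Some embryos were extreme in several genes. AI embryo H3 had the highest SMARCA2 (0.087), CHD4 (-1.17) and CTCF (-0.21) of its group and the lowest MPHOSPH8 (-0.84), whose arrays read -2.32 in Cy5 and 0.63 in Cy3. AI embryo 13 had the lowest CHD4 (-2.18) and CTCF (-1.77). NT embryo 3_2 had the highest CHD4 (-0.10) and MPHOSPH8 (2.50) of its group.

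The levels of the 6 genes moved together only in part. HDAC1 and SMARCA2 correlated at r = 0.76 over 44 embryos, and at 0.52 once the mean of each kind had been taken away. For the other 14 pairs that within-kind correlation lay between -0.36 (DNMT3A and HDAC1) and 0.19 (DNMT3A and MPHOSPH8), although CHD4 and CTCF reached 0.50 with the kinds pooled. Among all genes, the one most like DNMT3A was PA2G4 (r = 0.73, and 0.37 within kinds), followed by FKBP2 and DCAF1. CD59 (0.77, 0.47) came first for HDAC1, before SMARCA2 and GAR1, and EIF3H (0.81, 0.53) for SMARCA2, before HMGB1 and HDAC1. FANCI (0.75, 0.54) came first for CHD4, before JOSD1 and PGM3, and WNK1 (0.68, 0.45) for CTCF, before CHST7 and UNK. For MPHOSPH8 it was WDR83 (0.72, 0.50), before PFDN2 and NDUFA2. All of these come from the same arrays and centring and are descriptions.

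Against the donor cells HDAC1 was higher in every embryo. Donor samples 8 and 9 read -0.74 and -1.34, and the lowest embryo read 0.68. The difference was 2.59 ± 0.18 in NT (adjusted p = 8.96e-17), 2.19 ± 0.18 in IVF (adjusted p = 2.79e-14) and 2.64 ± 0.18 in AI embryos (adjusted p = 4.57e-17), which is 6.01-fold, 4.56-fold and 6.25-fold. HDAC1 passed in each dye orientation and with either donor sample alone, where the difference lay between 1.79 in IVF with Cy5 alone and 3.02 in NT with Cy3 alone.

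DNMT3A was higher in all NT and all AI embryos with a value than in either donor sample, which read 0.69 and 0.19. NT minus donor cells was 2.06 ± 0.46 (adjusted p = 0.000301) and AI minus donor cells 2.60 ± 0.46 (adjusted p = 1.05e-05), while IVF minus donor cells was 1.04 ± 0.46 and did not pass (adjusted p = 0.0732, 14 of 15 IVF embryos above both donor samples). The orientations disagreed on the donor level, with means of -0.36 in Cy5 and 1.24 in Cy3. With Cy3 alone the differences were 1.01 ± 0.65 in NT (adjusted p = 0.232) and 1.12 ± 0.65 in AI embryos (adjusted p = 0.190), so both calls ended.

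Of the other 4 genes, SMARCA2 passed against donor cells in IVF embryos alone and CHD4 in AI embryos alone. In NT against donor cells 2 of the 6 genes rose and 0 fell, where 35.4% of all genes passed (20.1% higher and 15.4% lower). In IVF against donor cells 1 rose and 1 fell (34.3% of all genes, 18.5% higher and 15.8% lower), and in AI against donor cells 2 rose and 1 fell (37% of all genes, 20.4% higher). SMARCA2 in IVF embryos was 2.05-fold lower than in donor cells, which read -0.18 and -0.49 (-1.04 ± 0.29, adjusted p = 0.00459). That call ended with Cy5 alone (-0.91, adjusted p = 0.0759) and without donor sample 8 (-0.88, adjusted p = 0.121). CHD4 in AI embryos was 1.91-fold lower than in donor cells, which read -0.69 and -0.86 (-0.93 ± 0.24, adjusted p = 0.00182), with 14 of 14 AI embryos below both donor samples. It ended with Cy3 alone (-0.58, adjusted p = 0.10) and without donor sample 8 (-0.85, adjusted p = 0.0585).

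CTCF and MPHOSPH8 passed against donor cells in no kind of embryo. CTCF read -0.72 and -0.12 in the donor samples, and its difference ran from -0.33 ± 0.28 in AI to 0.44 ± 0.28 in NT embryos (adjusted p = 0.396 and 0.229). MPHOSPH8 read -0.014 and 0.090, and its difference was 0.90 ± 0.69 in NT, -0.80 ± 0.69 in IVF and 1.16 ± 0.69 in AI embryos (adjusted p = 0.348, 0.404 and 0.200). With 2 donor samples these intervals are wide, from -0.49 to 2.29 for MPHOSPH8 in NT embryos.

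Other genes of chromatin were set beside the 6 by role. Of 181 listed genes 77 were measured. In NT against AI embryos 5 of the 77 rose and 2 fell, 8 rose and 7 fell in NT embryos set against IVF, and in IVF against AI embryos 9 rose and 10 fell. Over all genes tested the shares that passed were 8.07%, 24.2% and 29.5%. The median difference over the 77 was 0.0018, 0.030 and 0.0065. As deposited, 29 rose and 0 fell in NT against AI embryos, in NT against IVF embryos 27 rose and 2 fell, and 8 rose and 6 fell in IVF against AI embryos. Over all 4398 genes as deposited, 1978 rose and 19 fell, 1710 rose and 45 fell, and 344 rose and 354 fell in the same comparisons. The rise of the 77 in NT embryos as deposited was thus shared by genes at large. With NT embryos labelled 2_ alone 3 of the 7 calls against AI embryos and 8 of the 15 against IVF embryos remained, and with those labelled 3_ alone 3 of 7 and 10 of 15 remained.

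**Figure D5:**
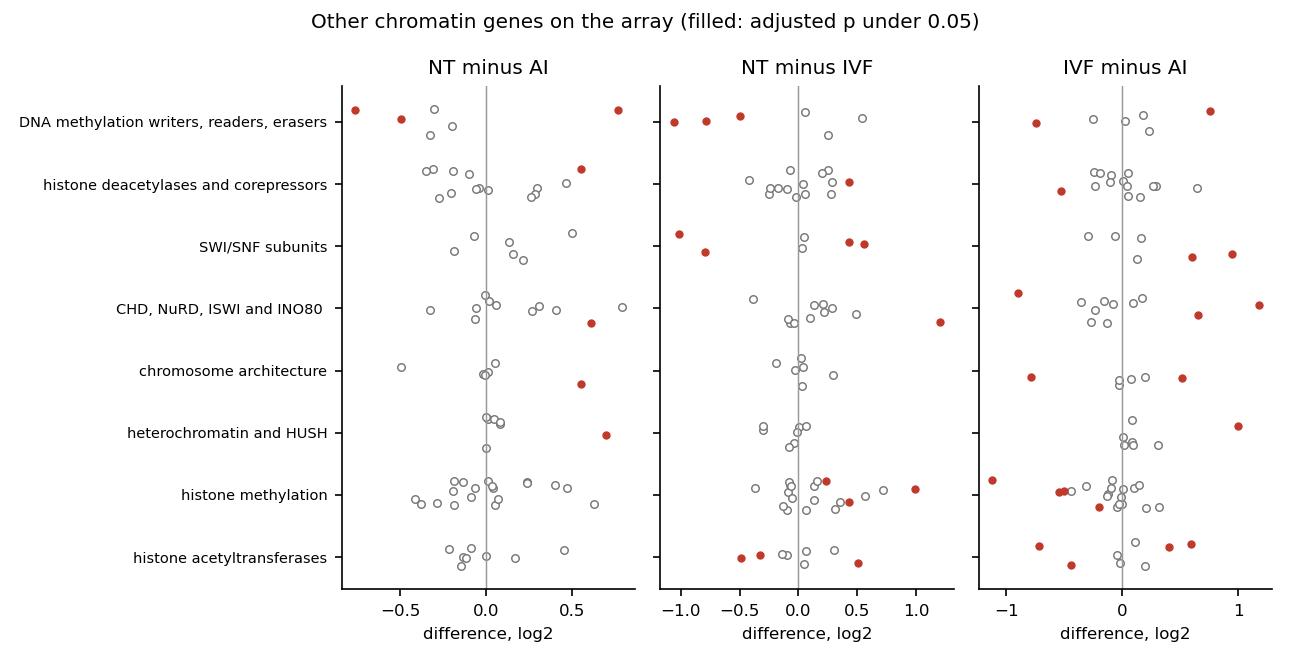
Differences between kinds of embryo (horizontal axes, log2) for the 77 other chromatin genes by role list; each point is a gene, and filled points have an adjusted p under 0.05. There are 7 filled points in NT minus AI (5 above 0), 15 in NT minus IVF (8 above 0) and 19 in IVF minus AI (9 above 0).

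Around DNMT3A, 6 of 17 other genes that write, read or remove DNA methylation were measured. GADD45A, a stress-induced protein linked to DNA demethylation, averaged 0.54 in NT and 1.60 in IVF embryos and 0.84 in AI embryos. In NT against IVF embryos it fell (-1.06 ± 0.14, adjusted p = 1.53e-07), with 15 of 15 NT embryos below the lowest IVF embryo. In IVF against AI embryos it rose (0.76 ± 0.14, adjusted p = 4.41e-05). TDG, the glycosylase that removes oxidised methylcytosine, was lower in NT than in AI (-0.76 ± 0.23, adjusted p = 0.0347) and IVF embryos (-0.78 ± 0.23, adjusted p = 0.00960). Both TDG calls ended as deposited and with NT embryos labelled 2_ alone. DMAP1, a partner of DNMT1, fell in NT (-0.49 ± 0.12) and in IVF embryos (-0.74 ± 0.12) against AI embryos, and UHRF2, a reader of hydroxymethylated DNA, rose in NT against AI embryos (0.77 ± 0.23, adjusted p = 0.0329). DMAP1 in NT lost its call as deposited, with Cy3 alone and with NT embryos labelled 3_ alone (-0.41, adjusted p = 0.0937). UHRF2 lost its call with either orientation alone. MBD3, a NuRD subunit, fell in NT against IVF embryos (-0.50 ± 0.18, adjusted p = 0.0312) and lost its call with either orientation alone, with either label of NT embryos alone, with a dye term, with 2 groups fitted and as deposited (-0.12, adjusted p = 0.692).

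Around HDAC1, 14 of 26 deacetylases and corepressors were measured. SAP30, a subunit of the SIN3 complex, followed HDAC1, with NT above IVF embryos (0.43 ± 0.13, adjusted p = 0.00948) and IVF below AI embryos (-0.53 ± 0.13, adjusted p = 0.00133). The NT call of SAP30 ended with Cy5 alone. SIN3B, a scaffold of the same complex, rose in NT against AI embryos (0.55 ± 0.13, adjusted p = 0.00548) and lost its call with Cy5 alone. No other gene of this list passed between kinds of embryo.

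SWI/SNF subunits did not all follow SMARCA2. Of 21 listed, 6 others were measured. ARID1A, a DNA-binding subunit, was lower in NT than IVF embryos (-0.79 ± 0.14, adjusted p = 3.96e-05) and rose in IVF against AI embryos (0.60 ± 0.14, adjusted p = 0.00122), and SMARCE1 did likewise (-1.02 ± 0.20 and 0.95 ± 0.20). Both had the opposite sign to SMARCA2. The core subunit SMARCB1 (0.43 ± 0.15, adjusted p = 0.0253) and SMARCC2 (0.56 ± 0.20, adjusted p = 0.0329) rose in NT against IVF embryos, as SMARCA2 did, and both lost their calls with either orientation alone. ARID1A lost its NT call as deposited and its IVF call with Cy5 alone.

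Among 11 measured of 27 listed CHD, NuRD, ISWI and INO80 genes, CHD8 did not share the pattern of CHD4. It rose in NT against IVF embryos (1.20 ± 0.25, adjusted p = 0.000314) and fell in IVF against AI embryos (-0.90 ± 0.26, adjusted p = 0.00615), and both calls ended with Cy3 alone. INO80, the ATPase of its complex, rose against AI embryos in NT (0.61 ± 0.20, adjusted p = 0.0436) and in IVF embryos (0.65 ± 0.20, adjusted p = 0.00995). The NT call of INO80 ended with either orientation alone. Its partner INO80B rose in IVF against AI embryos (1.17 ± 0.35, adjusted p = 0.00854, 13 IVF and 12 AI embryos with a value) and lost the call with Cy5 alone.

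Around CTCF, 6 of 12 genes of chromosome architecture were measured. SMC3, a cohesin subunit, fell in IVF against AI embryos (-0.79 ± 0.18, adjusted p = 0.000564). WAPL, which releases cohesin from DNA, rose against AI embryos in NT (0.55 ± 0.14, adjusted p = 0.00973) and in IVF embryos (0.52 ± 0.14, adjusted p = 0.00488), as CTCF did. The NT call of WAPL ended with Cy3 alone, and the IVF call as deposited (adjusted p = 0.0503).

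Around MPHOSPH8, 7 of 16 genes of heterochromatin and HUSH were measured. ATF7IP, a partner of the H3K9 methyltransferase SETDB1, was higher than in AI embryos in both NT (0.70 ± 0.17, adjusted p = 0.00672) and IVF embryos (1.00 ± 0.17, adjusted p = 1.54e-05), and held with either orientation. In NT embryos it lost its call with the embryos labelled 2_ alone (adjusted p = 0.0760). MORC2, which acts with HUSH in human cells, and TRIM28 differed between NT and AI embryos by 0.0018 and -4.7e-04, and did not pass.

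Histone methylation and acetylation genes gave 19 of 47 and 8 of 15 measured members. KDM2B, a demethylase that binds CpG islands, had means of 2.05 in NT, 1.06 in IVF and 2.18 in AI embryos. It rose in NT against IVF (0.99 ± 0.16, adjusted p = 1.06e-05) and fell in IVF against AI embryos (-1.12 ± 0.17, adjusted p = 1.12e-06). CARM1 (-0.50 ± 0.13), JARID2 (-0.55 ± 0.20) and WDR5 (-0.20 ± 0.076) also fell in IVF against AI embryos, and WDR5 (0.24 ± 0.075) and SETD2 (0.43 ± 0.16) rose in NT against IVF embryos. All of these but KDM2B lost their calls with Cy3 alone. The calls in IVF against AI embryos of CARM1 (adjusted p = 0.0881), JARID2 (adjusted p = 0.117) and WDR5 (adjusted p = 0.474) also ended as deposited. HAT1, an acetyltransferase of new histones, rose in NT against IVF embryos (0.50 ± 0.15, adjusted p = 0.00871) and fell in IVF against AI embryos (-0.72 ± 0.15, adjusted p = 0.000236). The first of these calls ended with NT embryos labelled 2_ alone (0.37, adjusted p = 0.164). TADA2A went the other way (-0.49 ± 0.091 and 0.40 ± 0.092). In NT minus IVF its call ended as deposited (-0.11, adjusted p = 0.566), and in IVF minus AI its sign turned with Cy5 alone (-0.10). KAT5 fell in NT against IVF embryos (-0.33 ± 0.10, adjusted p = 0.0181), with the sign turned as deposited (0.056). TRRAP rose in IVF against AI embryos (0.59 ± 0.15, adjusted p = 0.00248) and TADA3 fell (-0.44 ± 0.16, adjusted p = 0.0333), and both calls ended with Cy3 alone. That of TADA3 also ended as deposited (adjusted p = 0.164).

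Against donor cells 16 of the 77 rose and 6 fell in NT embryos, 19 rose and 7 fell in IVF embryos, and 13 rose and 7 fell in AI embryos. Over all genes tested 35.4%, 34.3% and 37% passed. JARID2, a partner of the Polycomb complex PRC2, was higher by 3.58 ± 0.41 in NT, 3.22 ± 0.41 in IVF and 3.77 ± 0.41 in AI embryos. MTA3, a NuRD subunit, was higher by 2.40 ± 0.33, 2.11 ± 0.33 and 2.46 ± 0.33, and KDM2B by 2.66 ± 0.33 in NT and 2.79 ± 0.34 in AI embryos. HDAC7, a class IIa deacetylase, went opposite to HDAC1, at -1.81 ± 0.26 in NT, -1.74 ± 0.26 in IVF and -1.5 ± 0.26 in AI embryos (adjusted p = 1.72e-07, 4.44e-07 and 7.2e-06). These calls held with either orientation and with either donor sample. SMARCA1, an ISWI ATPase, fell by 1.28 in NT, by 1.41 in IVF and by 1.28 in AI embryos and lost its calls without donor sample 9. MAU2, a cohesin loader, rose in NT (0.95 ± 0.18), IVF (1.14 ± 0.18) and AI embryos (0.94 ± 0.18), and its calls in NT and AI ended with Cy5 alone (0.47 and 0.52), that in AI also as deposited (0.73, adjusted p = 0.0691). RCOR1, PDS5A and TADA3 fell in all 3 kinds of embryo, and all of these calls ended with Cy3 alone and, in NT embryos, as deposited. RCOR1 differed by -0.87 ± 0.26 in NT, -0.77 ± 0.26 in IVF and -0.81 ± 0.27 in AI embryos, and its 3 calls also ended without either donor sample. PDS5A differed by -1.33 ± 0.42, -1.35 ± 0.42 and -1.31 ± 0.42, and its calls ended without donor sample 8 (adjusted p = 0.311, 0.306 and 0.311). TADA3 differed by -1.04 ± 0.33, -1.34 ± 0.33 and -0.90 ± 0.33, and its calls in NT and AI ended without either donor sample.

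Some markers of cell types also differed between kinds of embryo, mainly in the comparisons with NT embryos. Of 23 trophectoderm genes 17 were measured, and their mean per sample ran from 1.01 to 1.91 in NT, from 1.51 to 2.12 in IVF and from 1.62 to 2.44 in AI embryos, against -0.27 and -0.052 in donor cells. In NT against AI embryos 0 of these rose and 4 fell, and in NT against IVF embryos 1 rose and 7 fell, beside 4.27% and 10.3% of all genes lower. In IVF against AI embryos 3 rose and 2 fell, beside 29.5% of all genes in either direction. The mean of 14 measured of 25 fibroblast and matrix genes lay between -2.23 and -1.69 in all embryos, against 0.87 and 0.97 in donor cells. That contrast with donor cells follows from the direction chosen for the ratio. Single genes of this list did differ between kinds of embryo. In NT against AI embryos 3 of the 14 rose and 1 fell, and in NT against IVF embryos 5 rose and 2 fell. In IVF against AI embryos 1 rose and 2 fell. Over all genes 8.07%, 24.2% and 29.5% passed. Of 11 cumulus cell genes 2 were measured, and 0 passed between kinds of embryo. The part of these markers in the differences of the 6 genes was not tested.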

How the data were processed

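Per the labels, RNA was amplified, copied into aminoallyl cDNA, coupled to Cy5 or Cy3 and hybridised with a common reference. The authors deposited the log2 ratio of both dye channels for each spot; scanner software, background correction, normalisation and direction of the ratio are not given in the sources used here. The table of 92 arrays held no intensities, so signal over background could not be examined. A fill value of 16.61 (2657 cells) was set to missing, and 4.39% of cells were empty. Adjacent spots were the 2 spots of a probe. Values of arrays that held the sample in Cy3 were multiplied by -1, each array was centred on its median, and duplicate spots and then the 2 arrays of a sample were averaged, both being required. Probes needed values in 50% of each kind of embryo and in both donor samples (7992 of 8208). Probes of 1 symbol were averaged into 4398 genes. Symbols came from the platform annotation, and 4446 of 4452 matched the RefSeq gene table by Entrez ID, all 6 genes among them, with no symbol changed.

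Group means over 46 samples were fitted with limma 3.58.1 in R 4.3.3 (moderated variances, 2-sided, Benjamini-Hochberg over all genes, threshold 0.05), after a test on simulated data. Precision is limited by how many samples there are, with only 2 of donor cells. The genes, lists and alternatives were chosen with earlier results of these data known. Named were the 6 genes, up to 4 genes per role list with the smallest p in each comparison between embryos, up to 3 per direction against donor cells, and the 3 genes most like each of the 6 (values in at least 40 embryos); MORC2, TRIM28 and the marker genes named were chosen after their values were seen. Alternatives were the deposited scaling, quantile and median absolute deviation scaling, each dye alone, a dye term, other filters, 1 probe per gene, fits to 2 groups, and samples left out.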

Additional observations from a re-analysis of the deposited data

How the results depend on the processing

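Of 486 values of the 6 genes under alternatives, 454 kept direction and side of the threshold, 8 lost and 7 gained a call, and 17 changed sign, of which 0 had passed the test. As deposited, 1997 genes (1978 higher, 19 lower) differed in NT against AI embryos, against 355 (167 higher, 188 lower) when centred, with 186 shared, and 4 of the 6 genes passed. In NT against IVF embryos 1755 genes (1710 higher, 45 lower) differed as deposited, against 1066 (612 higher, 454 lower), and in IVF against AI embryos 698, against 1299. Against donor cells the split as deposited was 830 higher and 374 lower in NT (882 and 676 centred), 407 and 627 in IVF (812 and 696 centred) and 472 and 691 in AI embryos (898 and 729 centred). NT against AI embryos gave 550 genes with Cy5 alone, 216 with Cy3 alone, 167 with NT embryos labelled 2_ alone and 179 with those labelled 3_ alone, and NT against IVF embryos gave 696 with those labelled 3_ alone. Without either donor sample, where the lone sample is assumed to vary like the other groups, the counts lay between 1021 and 1024 in NT, 964 and 983 in IVF and 1067 and 1081 in AI embryos. Of the 6 genes, 1 passed in AI against donor cells with Cy3 alone, and between 1 and 2 passed in IVF against donor cells without a donor sample.

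Signs that turned, with none past the test before, were in NT minus AI those of HDAC1 (as deposited 0.36, median absolute deviation scaling 0.020, Cy3 alone 0.13), MPHOSPH8 (as deposited 0.12) and SMARCA2 (Cy3 alone -0.0028), and in NT minus IVF that of CHD4 (as deposited 0.20). Against donor cells they were SMARCA2 in NT (as deposited 0.12, Cy5 alone 0.0046, without a donor sample -0.25 to 0.061), CHD4 in NT (Cy3 alone 0.22) and in IVF (quantile 0.023, Cy3 alone 0.40, without a donor sample -0.17 to 0.0041), and CTCF in AI (Cy3 alone 0.053) and in IVF (as deposited -0.025, Cy5 alone -0.22, without a donor sample -0.15 to 0.44). Calls gained beside those in the text were CHD4 (-0.75) with Cy5 alone and CTCF (0.77) with Cy3 alone in NT minus donor cells, and DNMT3A in IVF minus donor cells with Cy5 alone (1.85) and with 2 groups fitted (1.04, adjusted p = 0.0479). AI and IVF embryos share 7 numbers, whose meaning the labels do not give. Samples of a number deviated together with r from -0.080 to 0.11, 1 of 7 above 0.1, and 1 of 7 correlated best with its own number. Little likeness by number was thus seen, and the main fit did not pair the embryos. With these numbers as a replicate block 452 genes differed in IVF against AI embryos, against 690 in the same embryos with no replicate block (chosen after seeing the data), and HDAC1 alone of the 6 lost its call (-0.45, adjusted p = 0.0795). The causes were not tested.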
